A study of Mus musculus with 2 samples.

Results

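Kit RNA positive germ cells were the cultured mouse THY-1+ germ cells in which at least 1 UMI (unique molecular identifier, a counted transcript molecule) of Kit was found. Droplet barcodes were kept with at least 2000 genes, at most 20% of UMIs in mitochondrial genes and fewer than 40 UMIs of the fibroblast genes Vim and S100a6 together. Of 8694 kept cells, 808 were selected on Kit in this way, 172 of 4537 in the FGF9‐treated library and 636 of 4157 in the control library. Both libraries came from established cultures of THY-1+ cells sorted from testes of C57 LacZ male pups about a week old. Feeders were STO cells, a fibroblast line of the mouse, and the medium held GDNF (20 ng/ml), GFRA1 (150 ng/ml) and FGF2 (1 ng/ml). They were then kept for 48 h with FGF9 (20 ng/ml) or with none (0 ng/ml; albumin in its place). The labels do not say whether GDNF and FGF2 were still present in those 48 h, and the study describes control cells without growth factors. There was 1 library per treatment, pooled from several mice, and the cells had been stained with an oligonucleotide-tagged antibody to KIT, so that surface protein was counted beside RNA in each cell. Treatment and library cannot be told apart, no test between treatments exists, and every 95% interval below covers counting error only.

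KIT is a receptor tyrosine kinase whose ligand, KIT ligand, is made by Sertoli cells in the testis. Spermatogonial stem cells (SSCs) and the progenitors that follow them carry little KIT and respond to GDNF through the receptors GFRA1 and RET. KIT appears as spermatogonia commit to differentiation, a step that retinoic acid drives and in which the basic helix-loop-helix factors SOHLH1 and SOHLH2 act on Kit. The mouse Kit gene (ENSMUSG00000005672) lies on the plus strand of chromosome 5, from 75574916 to 75656722 of GRCm38 in GENCODE. The stretch around its RefSeq start (GRCm38.p6, chr5:75574862-75575011, plus strand, 125 bases before the start and 25 after it) is shown because its transcript chose the cells. Capitals mark the single CANNTG, the E-box motif that basic helix-loop-helix factors can bind, which reads the same way on both strands and begins 9 bases after the start.
Kit: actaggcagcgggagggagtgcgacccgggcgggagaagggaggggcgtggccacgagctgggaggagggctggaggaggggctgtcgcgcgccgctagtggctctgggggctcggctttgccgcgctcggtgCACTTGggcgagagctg
Such a short motif is common, and 72.3% of the 32851 RefSeq promoter stretches of 300 bases hold it. The match is a description of these letters only.

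The chosen cells were germ cells by their other markers. Dazl, an RNA-binding protein of germ cells, was found in 172 of 172 FGF9‐treated and 636 of 636 control Kit-positive cells, with a median of 30.5 and 28.5 UMIs per cell and a lowest value of 7 and 3. Ddx4, the germ cell helicase, stood at 456 CPM (UMIs per 1000000 UMIs of the summed cells) in FGF9‐treated and 436 CPM in control Kit-positive cells. Mast cells also carry KIT, but the mast cell genes Cpa3, Tpsb2, Mcpt4 and Fcer1a were at 0 in both, which left only Hdc, at 3.29 and 1.34 CPM, among 5 markers. Of 4 markers each, Leydig cell markers summed to 5.38 and 4.77 CPM (Cyp17a1 and Insl3 at 0 in both libraries) and Sertoli cell markers to 9.27 and 5.77 CPM (Amh and Gata4 at 0 in both). Macrophage markers summed to 5.68 and 1.09 CPM, with Adgre1 and Lyz2 at 0 in both. In FGF9‐treated Kit-positive cells this sum came mostly from Ptprc, whose 12 UMIs were spread over 10 cells, all 10 with Dazl, and in control ones mostly from the 12 UMIs of Cd68 (1 UMI of Ptprc). The 10 feeder markers summed to 268 and 166 CPM, of which Lgals1 gave 145 and 93.5 CPM.

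Depth was high in both libraries, but not equal between cells with and without Kit. The kept cells held 67068085 UMIs in the FGF9‐treated and 67689739 UMIs in the control library. The median Kit-positive cell had 16696 UMIs in the FGF9‐treated and 16049 UMIs in the control library, against 12967 and 14585 UMIs in Kit-negative cells. Every comparison within a library therefore set each Kit-positive cell against the 3 Kit-negative cells nearest in total UMIs, each used once. These matched cells (516 FGF9‐treated and 1908 control cells) had median depths of 16706 and 16050 UMIs. Mitochondrial shares were close, with medians of 9.03% in Kit-positive and 9.09% in matched FGF9‐treated cells and of 9.31% and 9.41% in control cells. The libraries shared 11 barcodes, 10 of them kept and 0 of them Kit-positive.

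Kit-positive cells were fewer in the FGF9‐treated library at every depth. They made up 3.79% of FGF9‐treated cells (95% exact binomial interval 3.25 to 4.39) and 15.3% of control cells (14.2 to 16.4). Once each cell was thinned to 5000 randomly drawn UMIs (22 FGF9‐treated and 16 control cells were too shallow), the shares were 1.42% (1.09 to 1.81) and 6.28% (5.56 to 7.06). Kit held 204 UMIs (3.04 CPM over all kept cells) in the FGF9‐treated and 906 UMIs (13.4 CPM) in the control library. The share grew with depth in both. Among cells with fewer than 8000 UMIs, 1.40% of FGF9‐treated and 6.09% of control cells held a Kit UMI. Among cells with 24000 UMIs or more, 9.72% of FGF9‐treated and 29.4% of control cells did. Most members therefore rest on little RNA. A single Kit UMI, the value just inside the rule, was found in 151 of 172 FGF9‐treated and 454 of 636 control members, and the value just outside it was 0. The most Kit UMIs in any cell was 7, in 1 FGF9‐treated and 1 control cell.

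**Figure D1:**
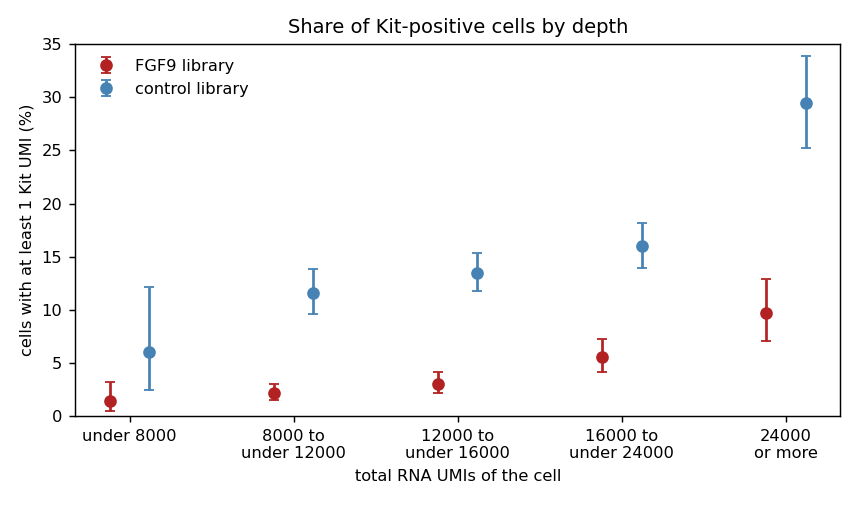
Share of kept cells with at least 1 Kit UMI (%, vertical axis) in 5 classes of total UMIs per cell (horizontal axis), with FGF9‐treated cells in red, control cells in blue and exact binomial 95% intervals as bars. In the deepest class the share was 9.72% in FGF9‐treated and 29.4% in control cells, and in each of the 5 classes the FGF9‐treated share lay below the control share.

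Free RNA sets a floor under such shares. Barcodes at or over the Vim and S100a6 limit, which should lack Kit, had Kit in 0 of 63 in the FGF9‐treated library (median 26481 UMIs), which allows a share of up to 4.76%, and in 1 of 31 in the control library (3.23%, 0.08 to 16.7, median 20517 UMIs). The FGF9‐treated share of 3.79% lies under that limit and the control share of 15.3% inside that interval, but both shares span all depths. In the depth class that holds the median of these barcodes, the FGF9‐treated share was 9.72% (7.10 to 12.9, 24000 UMIs or more), above that limit. The control share there was 16.0% (14.0 to 18.2, 16000 to under 24000 UMIs), inside that interval. Thinned to 5000 UMIs, 0 of 63 and 0 of 31 allow up to 4.76% and 9.68%. The kept shares of 1.42% and 6.28% lie under those limits. Barcodes outside the gene or mitochondrial limits held Kit at 3.48 CPM in the FGF9‐treated and 12.9 CPM in the control library, close to the level over kept cells in each. How many of the single-UMI members hold free Kit RNA was not tested.

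The KIT antibody tag, which the rule did not use, was higher in Kit-positive cells of both libraries. The median Kit-positive cell carried 392 tags (quartiles 316 and 585) and the median matched Kit-negative cell 324 (273 and 391) in the FGF9‐treated library, a ratio of 1.21 (1.13 to 1.33, the exact order-statistic interval of the Kit-positive median). Control Kit-positive cells carried 666 tags (445 and 1032) and matched cells 434 (366 and 564), a ratio of 1.53 (1.44 to 1.65). The quartile ranges overlapped in both libraries. The Kit-positive cell had more tags than its partner in 69.1% of 516 FGF9‐treated pairs and 73.7% of 1908 control pairs. More than the 90th percentile of matched cells (506 tags in the FGF9‐treated, 776 tags in the control library) was carried by 53 of 172 FGF9‐treated Kit-positive cells (30.8%, 24.0 to 38.3) and by 260 of 636 control ones (40.9%, 37.0 to 44.8). Tags were also found where no KIT is expected, with medians of 333 and 399 on the feeder-like barcodes and of 313 and 439 on barcodes outside the other limits, so that a large part of each count was background.

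Read the other way, the tag sorted cells by Kit RNA at its upper end only. In the tenth of kept cells with the most tags, 61 of 453 FGF9‐treated cells (13.5%, 10.5 to 17.0) and 199 of 415 control cells (48.0%, 43.1 to 52.9) held a Kit UMI. In the tenth with the fewest tags the shares were 2.42% and 8.41%. Total UMIs also moved with the tag (Spearman's rho over cells 0.28 in 4537 FGF9‐treated and 0.22 in 4157 control cells, a description). The tag also went with the number of Kit UMIs. FGF9‐treated cells had median tags of 382 at 1 Kit UMI, 586 at 2 (15 cells) and 1488 at 3 or more (6 cells). Control cells had 570, 841 (125 cells) and 1244 (57 cells). The matched cells of each class stayed between 320 and 333 tags in the FGF9‐treated library and between 436 and 446 tags in the control library, a far narrower range than that of the Kit-positive classes.

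**Figure D2:**
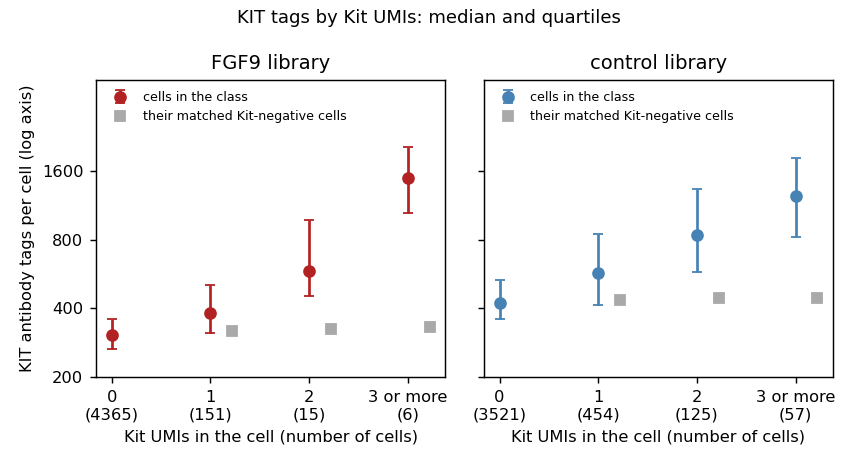
KIT antibody tags per cell (log axis) by the number of Kit UMIs in the cell, with FGF9‐treated cells in the left panel and control cells in the right. Coloured points are medians with quartile bars, grey squares are the medians of the matched Kit-negative cells, and the medians climb to 1488 tags in FGF9‐treated and 1244 tags in control cells with 3 or more Kit UMIs.

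As split by this rule, the transcriptome of Kit-positive cells stood close to that of their Kit-negative neighbours. Most members rest on 1 Kit UMI, and the share with Kit grew with depth. The matched cells may therefore include some whose Kit RNA went uncounted. How far this brings the classes closer was not tested. Ratios were taken as log2 of summed CPM, Kit-positive over matched Kit-negative, for genes with at least 50 CPM in both sums together, Kit left out. In the FGF9‐treated library 11 of 3737 genes (0.294%) were higher and 4 (0.107%) lower by 0.5 or more on the log2 scale. In the control library 1 of 3788 genes (0.0264%) was higher and 0 (0%) lower by that much. At a fold of 0.3, 97 genes (2.6%) were higher and 68 (1.82%) lower in FGF9‐treated Kit-positive cells, and 6 (0.158%) were higher and 4 (0.106%) lower in control Kit-positive cells. The FGF9‐treated sums hold fewer cells, so their ratios scatter more, with percentiles 1 and 99 of all ratios at -0.35 and 0.37, against -0.21 and 0.21 in the control library. The median ratio over all genes was 0.00 in both, with 50.6% of FGF9‐treated and 49.9% of control ratios above 0. The balance of higher and lower genes in FGF9‐treated cells was not stable, with 8 higher and 10 lower by 0.5 at a mitochondrial limit of 10%, and 8 and 8 without barcodes over 2.5 times the median UMIs. The cells were chosen on Kit within these same libraries, so the ratios describe the members, with no test.

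Mki67 and Top2a, markers of dividing cells, stood above matched cells in both libraries. Mki67, a protein of proliferating nuclei, had 291 CPM in Kit-positive and 183 CPM in matched FGF9‐treated cells (log2 ratio 0.66, 0.55 to 0.78) and 74.3 and 44.0 CPM in control cells (0.76, 0.64 to 0.88). It was the only gene past 0.5 among those over the level filter in the control library. Top2a, a topoisomerase needed to separate chromosomes, had 569 and 393 CPM in FGF9‐treated cells (0.53, 0.46 to 0.61) and 227 and 170 CPM in control cells (0.42, 0.35 to 0.49). Prc1, which organises the spindle midzone, had ratios of 0.58 (0.44 to 0.72) in FGF9‐treated and 0.32 (0.24 to 0.41) in control cells. Tpx2, a spindle assembly factor, had 0.54 and 0.24, and the nuclear lamina gene Lmnb1 0.37 and 0.34. Of 16 G2/M genes tested, 13 FGF9‐treated and 14 control ratios were above 0, with medians of 0.19 and 0.11, while 3 and 1 were past 0.5. Over all genes tested, 50.6% of FGF9‐treated and 49.9% of control ratios were above 0, and 0.294% and 0.0264% were higher by 0.5 or more. The mitosis genes Cdc20 and Aurkb were added after their values were seen. Their ratios were near 0 in both libraries (-0.01 and -0.02 in FGF9‐treated, -0.01 and 0.02 in control cells), below those of Prc1 and Tpx2. S phase genes were above 0 in 11 of 15 FGF9‐treated and 11 of 12 control ratios, against the same 50.6% and 49.9%, with a median of 0.10 in both. The G2/M sum was higher in Kit-positive cells, at 4519 against 3673 CPM in the FGF9‐treated and 2716 against 2467 CPM in the control library.

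Matching on the cell cycle as well as depth (neighbours taken within the same tertile of S and G2/M UMIs) lowered the Mki67 ratio to 0.37 (0.26 to 0.48) in FGF9‐treated cells and left it at 0.70 (0.58 to 0.82) in control cells. Top2a then had 0.25 in FGF9‐treated and 0.38 in control cells. Mki67, Top2a and Tpx2 are themselves among the S and G2/M genes that set the tertiles. Part of any fall in their ratios is thus built into the match. Under this match 3 genes in place of 15 were past 0.5 in the FGF9‐treated library. The top cycle tertile held 48.3% of Kit-positive and 43.0% of matched FGF9‐treated cells, and 39.5% and 35.9% of control cells, intervals that overlapped in both libraries.

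Some genes of spermatogonial differentiation, Sohlh1 and Crabp1 among them, were modestly higher in Kit-positive cells of both libraries, and others were not. Sohlh1, the partner marker of these cells and a factor that acts on Kit, had 129.8 CPM in Kit-positive and 106 CPM in matched FGF9‐treated cells (0.29, 0.12 to 0.45) and 249 and 217 CPM in control cells (0.20, 0.14 to 0.26). After thinning to 5000 UMIs it was found in 41.9% of Kit-positive and 36.4% of matched FGF9‐treated cells, and in 62.5% and 59.1% of control cells, so that most Sohlh1-positive cells held no Kit UMI. Feeder-like barcodes had it in 1.59% (FGF9‐treated library) and 9.68% (control library). The unthinned shares were 73.3% and 65.5% in FGF9‐treated cells and 91.4% and 86.0% in control cells. Sohlh2, its family member, had ratios of 0.14 (-0.08 to 0.35) in FGF9‐treated and 0.18 (0.05 to 0.31) in control cells. Crabp1, a cellular retinoic acid binding protein, had 75.1 and 58.2 CPM in FGF9‐treated cells (0.37, 0.15 to 0.58) and 113 and 97.9 CPM in control cells (0.21, 0.12 to 0.30). Stra8, which retinoic acid induces at differentiation and meiotic entry, was rare, at 7.18 and 6.31 CPM in FGF9‐treated cells (0.19, -0.56 to 0.89) and 9.11 and 5.94 CPM in control cells (0.62, 0.27 to 0.96). Dmrt1, a factor that holds spermatogonia in the mitotic programme, had ratios of 0.21 (0.09 to 0.33) in FGF9‐treated and 0.13 (0.07 to 0.19) in control cells. Some members lay on the other side. Lmo1 had 0.14 (-0.10 to 0.37) in FGF9‐treated and -0.15 (-0.27 to -0.03) in control cells, and the D-type cyclin gene Ccnd2 -0.25 (-0.36 to -0.14) and -0.06. Of 7 differentiating markers tested, 5 were above 0 in each library, with medians of 0.14 and 0.16, and 0 were past 0.5. Over all genes tested, 50.6% of FGF9‐treated and 49.9% of control ratios were above 0. So few of all genes were past 0.5 that 0 of 7 does not set these markers apart. The factors that act on Kit had medians of 0.16 over 8 FGF9‐treated and 0.05 over 7 control ratios.

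Several SSC and progenitor genes were lower in Kit-positive cells, while others stayed near 0. Gfra1, the GDNF co-receptor, had 38.3 CPM in Kit-positive and 58.5 CPM in matched FGF9‐treated cells (-0.61, -0.90 to -0.33) and 14.4 and 17.4 CPM in control cells (-0.27, -0.53 to -0.03). After thinning, Gfra1 was found in 15.1% and 25% of FGF9‐treated and in 7.09% and 7.98% of control cells, against 7.94% and 6.45% of feeder-like barcodes. In the FGF9‐treated library these were 5 of 63 barcodes (upper bound 17.6%), a bound above the Kit-positive share and under the matched share. In the control library they were 2 of 31 barcodes (upper bound 21.4%), too few to set the control shares above background. Ret, the signalling partner of GFRA1, had 91.2 and 100.1 CPM in FGF9‐treated cells (-0.13, -0.32 to 0.05) and 26.9 and 35.5 CPM in control cells (-0.40, -0.58 to -0.22). Nanos3, an RNA-binding protein of undifferentiated spermatogonia, had ratios of -0.17 (-0.36 to 0.02) in FGF9‐treated and -0.23 (-0.31 to -0.14) in control cells. Egr4, a zinc finger factor of the SSC list, had -0.16 (-0.30 to -0.02) and -0.26 (-0.33 to -0.19), and the tetraspanin gene Cd9 -0.17 and -0.11. Neurog3, a progenitor factor, had 16.5 and 15.9 CPM in FGF9‐treated cells (0.05, -0.42 to 0.50) and 39.6 and 46.4 CPM in control cells (-0.23, -0.38 to -0.08). Sox3, which acts before differentiation, had 0.25 (-0.02 to 0.52) and 0.01, and the progenitor marker Upp1 0.17 (-0.08 to 0.41) and -0.31 (-0.42 to -0.19). Id4, an inhibitor of helix-loop-helix factors found in SSCs, had ratios of 0.24 (-0.17 to 0.64) in FGF9‐treated and 0.08 in control cells, with an interval that spans 0 in both. Zbtb16 and Sall4, regulators of undifferentiated spermatogonia, also stayed near 0, with 0.03 and -0.08 in FGF9‐treated and 0.05 and -0.08 in control cells. Itga6, an integrin gene of the SSC list, lay the other way. It had 0.24 (0.06 to 0.42) in FGF9‐treated and 0.11 (-0.02 to 0.24) in control cells. The 5 SSC markers tested in FGF9‐treated cells had a median of -0.16 and the 3 tested in control cells one of -0.11. Progenitor markers had medians of -0.03 (4 genes) and -0.23 (5 genes).

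**Figure D3:**
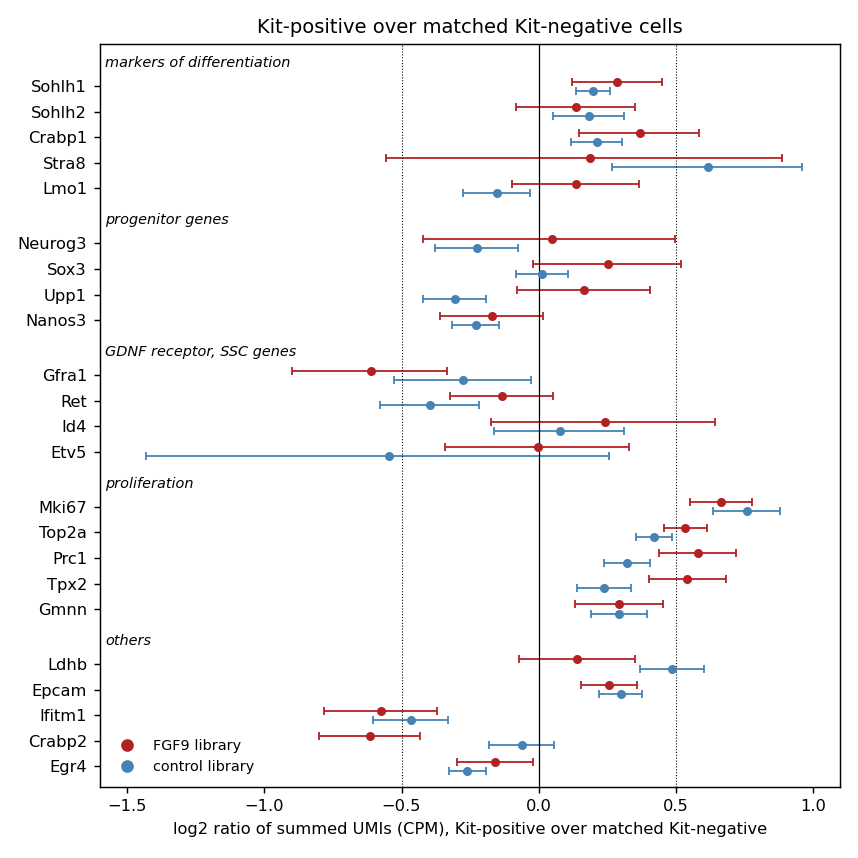
Log2 ratio of summed CPM (horizontal axis), Kit-positive over matched Kit-negative cells, for 23 genes grouped by role, with FGF9‐treated ratios in red above control ratios in blue and 95% counting intervals as bars. Dotted lines mark -0.5 and 0.5, the full line marks no difference, and Mki67 lies beyond the upper dotted line in both libraries at 0.66 and 0.76.

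Some of the genes at the ends of the ranking are not part of these programmes. Ifitm1, an interferon-induced membrane protein also found in early germ cells, was lower in both libraries, at 71.5 CPM in Kit-positive and 106 CPM in matched FGF9‐treated cells (-0.57, -0.78 to -0.37) and 46.9 and 64.8 CPM in control cells (-0.47, -0.60 to -0.33). Epcam, an epithelial adhesion molecule of spermatogonia, was higher in both, with ratios of 0.26 and 0.30. The lactate dehydrogenase B gene Ldhb had 76.3 and 69.2 CPM in FGF9‐treated cells (0.14, -0.07 to 0.35) and 75.9 and 54.2 CPM in control cells (0.49, 0.37 to 0.60). Crabp2, a retinoic acid binding protein that delivers its ligand to the nucleus, had 88.2 and 135 CPM in FGF9‐treated cells (-0.62, -0.80 to -0.43) and 64.6 and 67.4 CPM in control cells (-0.06, -0.18 to 0.06), so that Crabp1 and Crabp2 lay on opposite sides of 0 in the FGF9‐treated library. The other genes past 0.5 in FGF9‐treated cells were the nuclear envelope protein gene Syne2 (0.64, 0.46 to 0.81), Alg13 (0.60), the cell cycle kinase gene Wee1 (0.56), Arid4a (0.56), Rangap1 (0.55), the kinetochore gene Knl1 (0.52), the sterol synthesis gene Cyp51 (0.51) and, at the lower end, Pcbp4 (-0.59).

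Genes of the pathway that KIT itself signals through had ratios near 0. Of 38 measured members of KIT signalling, 13 passed the level filter in the FGF9‐treated and 15 in the control library, and 0 were past 0.3 in either, where 2.6% and 1.82% of all FGF9‐treated and 0.158% and 0.106% of all control ratios were higher and lower by that much. A count of 0 among so few genes does not set them apart from other genes. Medians were 0.07 in FGF9‐treated and -0.02 in control cells. Foxo1, a factor that AKT holds in check, had 0.18 (0.01 to 0.34) in FGF9‐treated and -0.06 (-0.13 to 0.01) in control cells, and the Src-family kinase gene Fyn -0.14 and -0.18 (-0.30 to -0.07). Kitl, the gene of the ligand, was rare in the members, at 8.37 and 2.84 CPM.

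Some of the differences were larger in control cells with more Kit UMIs, and others were not. The genes shown here include ends of the control ranking. Nanos3 had ratios of -0.17 at 1, -0.32 at 2 and -1.07 (-1.40 to -0.75) at 3 or more Kit UMIs. Ifitm1 had -0.26, -1.26 and -1.49 (-2.03 to -0.98), and the uridine phosphorylase gene Upp1, a progenitor marker, -0.22, -0.51 and -1.08 (-1.57 to -0.62). Ldhb went the other way, with 0.27, 0.61 and 1.03 (0.67 to 1.39). These 4 genes were thus ordered by the number of Kit UMIs. Ret had -0.32 at 1, -0.32 at 2 and -1.23 (-2.01 to -0.53) at 3 or more Kit UMIs. Mki67 ran against that order, with 0.77, 0.60 and 0.38 (-0.02 to 0.77), and Sohlh1 had 0.20, 0.23 and 0.23. Other genes had no such order, with -0.45, 0.20 and -0.66 for Gfra1, 0.42, 0.46 and 0.21 for Top2a, 0.13, 0.34 and 0.21 for Crabp1 and 0.26, 1.45 and -0.74 for Stra8. With members defined by at least 2 Kit UMIs (182 control cells and 546 matched cells), 14 control genes in place of 1 were past 0.5, led by Lmnb1 (0.72), Ldhb (0.72) and Macf1 (0.61) at the upper and Ifitm1 (-1.28), Upp1 (-0.66) and Large2 (-0.64) at the lower end. The FGF9‐treated library had 21 such cells, too few to order.

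The KIT tag also divided the members, here in tertiles that were set after the data were seen. Mki67 stood at 373, 326 and 205 CPM from the lowest to the highest tag tertile of FGF9‐treated Kit-positive cells, against 201, 177 and 177 CPM in the tertiles of matched Kit-negative cells. In control Kit-positive cells it stood at 104, 76.0 and 52.4 CPM, against 36.2, 50.6 and 44.5 CPM. The excess of Mki67 was thus widest in the lowest tag tertile of control Kit-positive cells. In FGF9‐treated Kit-positive cells it was similar in the lowest and middle tertiles and small in the highest. Nanos3 in the control library also fell with the tag, but its shortfall against matched cells lay in Kit-positive cells with more tags. It stood at 147, 125 and 102 CPM in Kit-positive and 139.8, 146 and 143 CPM in matched cells. Ifitm1 did the same, at 75.5, 40.9 and 31.5 CPM in control Kit-positive cells and 65.3, 68.5 and 61.3 CPM in matched cells. In FGF9‐treated cells Ifitm1 was below the matched level in all 3 tertiles, at 84.2, 75.4 and 59.3 CPM against 109.5, 109 and 102 CPM. Kit itself did not differ between tag tertiles beyond its counting intervals, at 62.4, 60.0 and 60.8 CPM in FGF9‐treated and 71.7, 77.3 and 77.4 CPM in control members. Every member holds at least 1 Kit UMI by the rule, which bounds these levels from below, and lower in deeper cells. They therefore cannot show whether Kit RNA went with the tag among members. Depth did differ, with medians of 14782, 16329 and 20775 UMIs in FGF9‐treated and 14898, 15780 and 19385 UMIs in control members, and its part in these values was not tested.

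**Figure D4:**
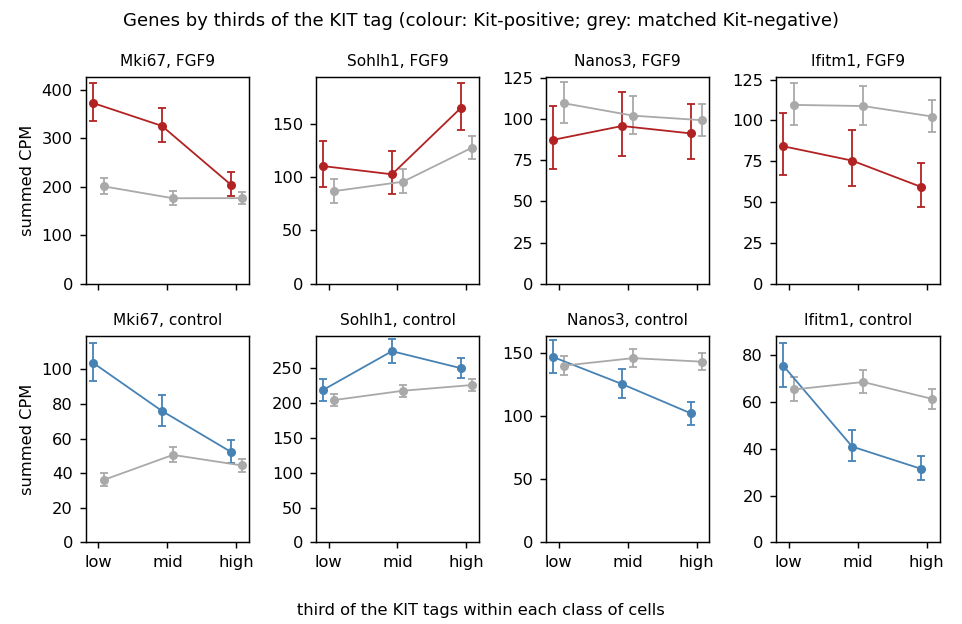
Summed CPM (vertical axes, from 0) of Mki67, Sohlh1, Nanos3 and Ifitm1 by tertile of the KIT tag within each class of cells, with FGF9‐treated cells in the upper row and control cells in the lower. Coloured points are Kit-positive cells, grey points are matched Kit-negative cells and bars are 95% Poisson intervals; Mki67 is lowest, at 205 CPM in FGF9‐treated and 52.4 CPM in control Kit-positive cells of the highest tertile.

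Whether the Kit-positive state was the same under FGF9 was read by choosing genes in 1 library and measuring them in the other. The 40 genes highest in control Kit-positive cells had ratios above 0 in 40 of 40 cases in the FGF9‐treated library, and their sum had a ratio of 0.26 (0.24 to 0.28). The 40 lowest in control cells were below 0 in 36 of 40, with a sum of -0.14 (-0.17 to -0.12). Genes chosen in the FGF9‐treated library had the same sides in control cells, with 39 of 40 above 0 (0.17, 0.16 to 0.18) and 35 of 40 below 0 (-0.10, -0.12 to -0.09). Over all genes tested, 50.6% of FGF9‐treated and 49.9% of control ratios were above 0. Single cells overlapped widely. The genes high in control cells took a median of 103 UMIs per 10000 in FGF9‐treated Kit-positive cells and 87.0 in their matched cells. Those chosen in FGF9‐treated cells took 82.0 in control Kit-positive and 74.4 in matched cells. Both lists of 40 high genes shared 13 (32.5% of each), among them Mki67, Top2a, Prc1, Tpx2, Cenpe, Hmgb2, Lmnb1 and Syne2. The lists of low genes shared 4 (10.0% of each), which were Ifitm1, Hadhb, Rsu1 and Tsc22d3. With matching on the cell cycle as well, the sums of the high genes were 0.16 in FGF9‐treated and 0.14 in control cells. The genes used for this match include 6 of the 40 high genes chosen in control and 7 of the 40 chosen in FGF9‐treated cells. Of the high genes 37 of 40 and 38 of 40 were then above 0. Of the low genes 36 of 40 and 29 of 40 were then below 0. Over 3526 genes tested in both, the ratios of the libraries had a Pearson correlation of 0.46 and a Spearman correlation of 0.44, across genes, which are not independent replicates.

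Between the libraries, Kit-positive cells differed more widely. For the ratio of FGF9‐treated over control Kit-positive cells, percentiles 1 and 99 lay at -0.75 and 0.87, and 153 of 3795 genes (4.03%) were higher and 151 (3.98%) lower by 0.5 or more on the log2 scale. Etv5, Dusp6, Ret and Gfra1 lay under the level filter for this ratio and are not among the genes counted. Etv5, an ETS factor of SSC self-renewal, had 30.2 CPM in FGF9‐treated and 1.34 CPM in control Kit-positive cells (4.50, 3.73 to 5.36). Dusp6, an ERK phosphatase, had 51.1 and 3.34 CPM (3.93). The control values rest on 16 UMIs of Etv5 and 40 UMIs of Dusp6. Ret had 91.2 and 26.9 CPM (1.76), and Gfra1 38.3 and 14.4 CPM (1.41, 1.07 to 1.75), so that FGF9‐treated cells with Kit stood above control cells without it, at 17.4 CPM of Gfra1 (1.14). Nefm, a neurofilament gene, had 210.2 and 16.1 CPM (3.70), and Mki67 291 and 74.3 CPM (1.97, 1.83 to 2.10). Of 16 G2/M genes, 12 were higher by 0.5 or more in FGF9‐treated members and 16 above 0, with a median of 0.82. Of all genes tested for this ratio, 46.6% were above 0.

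Several genes of progenitors and differentiation were lower in FGF9‐treated than in control members. Of 7 differentiating markers, 4 were lower and 1 was higher by 0.5 or more, and of 5 progenitor markers 1 was lower and 0 were higher. Over all 3795 genes tested, 3.98% were lower and 4.03% higher by that much. Sohlh1 had 129.8 and 249 CPM (-0.94, -1.09 to -0.79), Sox3 48.1 and 102 CPM (-1.09), Neurog3 16.5 and 39.6 CPM (-1.27, under the level filter) and Crabp1 75.1 and 113 CPM (-0.60). The ubiquitin hydrolase gene Uchl1 had 733 and 1376 CPM (-0.91), and Rac3, a small GTPase gene, had a log2 ratio of -1.63. Sohlh2 lay the other way at 0.33 (0.11 to 0.55), with 71.8 and 57.0 CPM, as did Ccnd2 at 0.67 (0.55 to 0.78), and Lmo1 had 0.07 (-0.16 to 0.29). For Stra8 no difference was detectable at this depth (-0.34, -1.05 to 0.30). Matched Kit-negative cells showed differences of the same direction between the libraries, with ratios of -1.03 for Sohlh1, -1.33 for Sox3, 1.75 for Gfra1, 3.95 for Etv5 and 2.06 for Mki67. Kit-positive FGF9‐treated cells held less Sohlh1 than control cells without Kit, at 129.8 against 217 CPM (-0.74, -0.88 to -0.60). Kit per member was 61.0 CPM in FGF9‐treated and 75.8 CPM in control Kit-positive cells, levels that the rule bounds from below, since every member holds at least 1 UMI.

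**Figure D5:**
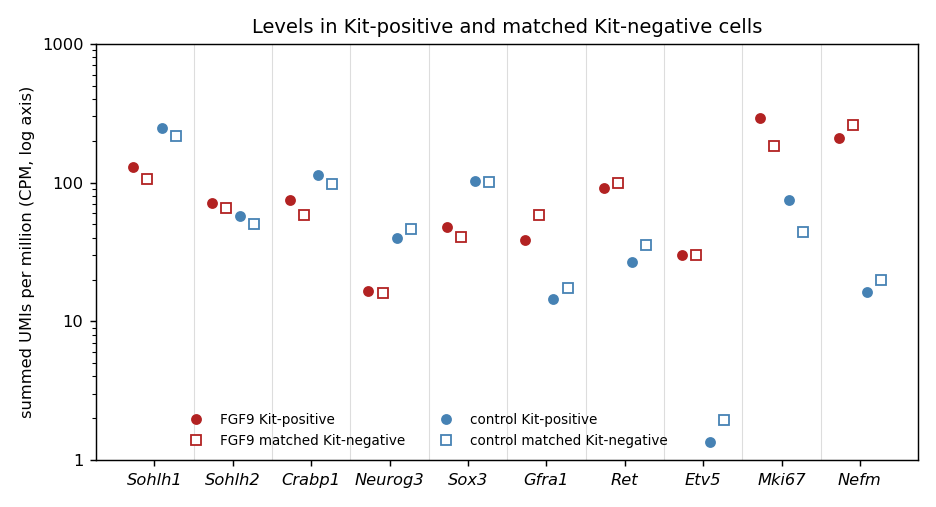
Summed CPM (log axis) of 10 genes in FGF9‐treated Kit-positive, FGF9‐treated matched Kit-negative, control Kit-positive and control matched Kit-negative cells, from left to right within each gene. Filled points (Kit-positive) lie near the open squares (matched) of the same colour, while red and blue stand farther apart for most genes and least for Sohlh2, with the widest gap for Etv5 at 30.2 CPM in FGF9‐treated and 1.34 CPM in control Kit-positive cells.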

How the data were processed

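RNA and KIT antibody tags of single cells were read with the 10x 3' kit and feature barcoding in 1 FGF9‐treated and 1 control library. The authors deposited matrices of unnormalised UMI counts by gene and by barcode, made with Cell Ranger (3.1.0 in the file header) on mm10; the submitters' notes also name Seurat 3.1. No doublet caller was run, and an alternative drops the deepest barcodes, those above 2.5 times their library's median. Members and gene lists were chosen with earlier results of these data known.

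Each Kit-positive cell, deepest first, was matched without replacement to 3 Kit-negative cells in log total UMIs. Counts were summed per class and given as CPM. Ratios have exact conditional binomial 95% intervals, levels exact Poisson and shares Clopper-Pearson intervals; a share of 0 is limited at 3 counts. Cells are not replicates, so no p-value was computed. Named genes were those of the study's marker sets with Uchl1, Neurog3 and Stra8, the 15 highest and 15 lowest control ratios and 8 and 8 FGF9‐treated ones (ranked by the bound nearest 0, without Kit, predicted genes, clone names and mitochondrial transcripts), the 6 and 6 differing most between libraries, the 8 and 8 ends of FGF9‐treated over control members, up to 4 per list, and mast cell markers. Kitl, Cdc20, Aurkb, Ptprc, Cd68, Malat1 and the full sets past a fold were added after their values were seen. The steps were tested on simulated data. Gene coordinates came from GENCODE vM21, in which 32158 of 32285 identifiers were found. Scripts ran under Python 3.11.15, numpy 2.4.6, scipy 1.17.1, pandas 2.3.3 and matplotlib 3.10.9.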

Additional observations from a re-analysis of the deposited data

Results flagged for a closer look

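For 5 of the named genes over the level filter in at least 1 library, the Kit-positive over matched Kit-negative ratio lay on opposite sides of 0 in the 2 libraries, with both intervals clear of 0. The named genes include the 6 and 6 picked because this ratio differed most between the libraries, Gbp2 among them. Such a contrast was thus partly selected, and no share over all genes was taken beside this count. The difference between the libraries was not tested, since there is 1 library per treatment. Fos, an immediate early gene, had log2 ratios of 0.24 in FGF9‐treated cells (87.9 CPM in Kit-positive, 74.4 CPM in matched cells) and -0.38 in control cells (27.7 and 36.0 CPM, under the level filter), a difference of 0.62. Gbp2, an interferon-induced GTPase gene, had 0.26 and -0.18, a difference of 0.44. Psmd7, a proteasome subunit gene, had 0.19 in FGF9‐treated cells (395 and 346 CPM) and -0.12 in control cells (448 and 487 CPM), a difference of 0.31. Ndufa12, a respiratory chain gene, had -0.23 and 0.17, a difference of -0.40. Mt2, a metallothionein gene, had -0.16 and 0.18, a difference of -0.35.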

How the results depend on the processing

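No paired analysis was possible because each treatment has 1 library, and for the same reason no replicate could be left out. No ratio of a named gene past 0.5 and over the level filter, and no gene sum, changed sign under any alternative run, but smaller ratios did. With at least 2 Kit UMIs, 89 of 117 FGF9‐treated and 103 of 117 control ratios had the sign reported, and in FGF9‐treated cells Lmo1 went to -0.83 (-1.73 to -0.02) and Stra8 to -1.88 (-7.30 to 0.91). Genes past a log2 ratio of 0.5 in FGF9‐treated cells numbered 15, and 5 with depth bins, 30 without depth matching, 460 with at least 2 Kit UMIs (21 cells), 3 when matched on the cell cycle too, 62 at 20 CPM, 7496 with no filter, 165 at a fold of 0.3 and 0 at a fold of 1. In control cells the number was 1, and 2, 3, 14, 1 (cycle), 4, 7392, 10 and 0 under the same settings. It was 0 without barcodes over 2.5 times the median UMIs, where Mki67 kept a ratio of 0.90 but fell under 50 CPM. For FGF9‐treated over control members it was 304, and 540 with at least 2 Kit UMIs, 760 at 20 CPM, 9645 with no filter, 853 at 0.3 and 34 at 1. Low counts thus limit what the smaller classes can show. The share of Kit-positive cells was 3.79% and 15.3%, and 0.463% and 4.38% with at least 2 Kit UMIs, 1.42% and 6.28% thinned to 5000 UMIs, and 1.89% and 9.35% thinned to 8000 UMIs. The KIT tag ratio was 1.21 and 1.53, and 2.77 and 2.18 with at least 2 Kit UMIs; with background tags subtracted it was 7.52 in FGF9‐treated cells and could not be formed in control cells, whose matched median lay under the background. The sum of genes high in control cells, read in FGF9‐treated cells, was 0.26, and 0.30 with 20 genes, 0.22 with 80 and 0.16 when matched on the cycle too. Low genes gave -0.14, and -0.19 with 20 genes and -0.12 when matched on the cycle. Genes chosen in FGF9‐treated cells and read in control cells gave 0.17 (0.20, 0.13 and 0.14) and -0.10 (-0.13, -0.071 and -0.061) under the same 3 settings. Of 117 named genes, matching on the cycle moved 11 FGF9‐treated and 0 control ratios, no depth matching moved 12 and 8, and at least 2 Kit UMIs moved 65 and 57. The cell cycle match and the tag tertiles were added after the data were seen where they concern the gene sums. The causes of these shifts were not tested.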

Other observations

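Of the DNA methylation enzymes tested, 2 of 3 FGF9‐treated and 4 of 4 control ratios were above 0, where 50.6% and 49.9% of all genes were. Their medians of 0.18 and 0.16 were 0.07 and 0.13 when matched on the cell cycle too. Dnmt1, the maintenance methyltransferase gene, had log2 ratios of 0.18 (0.07 to 0.28) in FGF9‐treated and 0.17 (0.10 to 0.23) in control cells, and Uhrf1, which recruits DNMT1, 0.22 (0.07 to 0.36) and 0.22 (0.10 to 0.33). Dnmt3a, a de novo methyltransferase gene, had -0.10 (-0.35 to 0.15) and 0.16 (0.05 to 0.27). Glycolysis genes lay below 0 in 9 of 12 FGF9‐treated and 6 of 7 control ratios, where 50.6% and 49.9% of all genes lay above 0. Their medians were -0.04 and -0.05, beside lower quartiles of -0.09 and -0.05 over all genes. Of 11 early meiosis genes, 7 FGF9‐treated and 8 control ratios were above 0, where 50.6% and 49.9% of all genes were, and the medians of 0.06 and 0.06 were -0.01 and 0.04 when matched on the cell cycle too. Smc1b, a meiotic cohesin gene, had 0.06 (-0.02 to 0.13) and 0.20 (0.16 to 0.24), and Syce3, of the synaptonemal complex, -0.38 (-0.64 to -0.13) and -0.16 (-0.27 to -0.04).

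Long genes tended to have higher ratios in Kit-positive cells. Spearman's rho between the ratio and the span of the gene was 0.24 over 3736 genes in FGF9‐treated and 0.16 over 3787 genes in control cells, a description across genes that share 1 library each. The nuclear RNA Malat1 had 3497 CPM in Kit-positive and 2986 CPM in matched FGF9‐treated cells (0.23, 0.20 to 0.26) and 3001 and 2681 CPM in control cells (0.16, 0.14 to 0.18).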
